A study of Mus musculus with 9 samples.

Results

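MHC class I molecules are made of a heavy chain and a light chain, and RNA of 6 heavy chain genes (H2-K1, H2-D1, H2-T22, H2-T23, H2-Q4 and H2-T24) and of the light chain gene B2m was followed in the mouse hypothalamus. These 7 genes were picked by symbol from the 14351 genes of the deposited table, and all 7 were present. They were named when the difference between the Clic1 KO and WT libraries was already known, so their differences, the intervals of these and the number past a threshold are given as a description and support nothing by themselves. The study asked which hypothalamic genes differ when the chloride intracellular channel gene Clic1 is missing, and RNA was sequenced from 9 libraries of male mice. The 5 Clic1 KO libraries (replicates 2, 4, 6, 8 and 10) came from mice lacking Clic1 in the whole body, and the 4 WT libraries (replicates 1, 3, 9 and 11) from wild-type littermates, both fed normal chow. The study describes a CD-1 background, whereas the sample labels give the strain as C57b/6J for both groups. The labels give hypothalamus as tissue, although their treatment field names perigonadal adipose tissue, and all 14 hypothalamic marker genes looked for were in the table. Replicate 10 was placed with the KO libraries by its description and column name, although its title and treatment label call it WT. The labels do not say whether each library came from a separate mouse, so p-values measure the spread between these samples. No age was given for these mice in the sources used here.

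Heavy chains carry short peptides from the inside of the cell to its surface, where CD8 T cells and natural killer cells read them, and the light chain beta-2-microglobulin holds most of them in a stable form. H2-K1 and H2-D1 are the classical, widely expressed heavy chains of the mouse. H2-T22, H2-T23, H2-T24 and H2-Q4 are nonclassical chains, of which H2-T23 presents leader peptides of other class I chains to an inhibitory receptor of natural killer cells, and H2-T22 is a ligand of some gamma-delta T cells. The heavy chain genes form clusters in the H2 complex on chromosome 17, are among the most variable genes between mouse strains, and are induced by interferons. In the healthy brain class I RNA is known mainly from endothelial cells, microglia and some neurons.

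The promoters of classical class I genes are known for a kappaB-type element and an interferon-response element a short distance before the start. A RefSeq promoter on GRCm38.p6 was held for 6 of the 7 genes, all but H2-T24. The sequences below are shown to compare these elements between the heavy chains whose KO and WT libraries were apart and those whose libraries overlapped. They run 5′ to 3′ on the strand of the gene, and capitals mark matches to GGGGATT followed by any base and CC (kappaB-type), to TTTCACTT (interferon-response type) and to CCAAT, each searched on both strands. For H2-D1 and H2-T23 only short stretches are given, because annotated first exons reach into the window.
H2-K1: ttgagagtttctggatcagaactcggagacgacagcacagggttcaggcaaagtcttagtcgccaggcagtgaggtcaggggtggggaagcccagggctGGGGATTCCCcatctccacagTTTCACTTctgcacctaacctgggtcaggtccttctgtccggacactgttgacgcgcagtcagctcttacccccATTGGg
H2-D1: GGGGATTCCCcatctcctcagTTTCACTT
H2-Q4: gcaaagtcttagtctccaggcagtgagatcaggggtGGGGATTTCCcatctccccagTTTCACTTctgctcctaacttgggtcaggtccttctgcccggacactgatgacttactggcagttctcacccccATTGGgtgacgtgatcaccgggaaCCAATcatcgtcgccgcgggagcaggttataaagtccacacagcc
H2-T22: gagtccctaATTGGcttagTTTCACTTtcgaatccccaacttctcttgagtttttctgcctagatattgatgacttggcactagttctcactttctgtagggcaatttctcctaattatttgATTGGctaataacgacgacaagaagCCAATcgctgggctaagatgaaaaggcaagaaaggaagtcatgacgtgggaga
H2-T23: gttttctaaaagCCAATcagcgacgcagag
B2m: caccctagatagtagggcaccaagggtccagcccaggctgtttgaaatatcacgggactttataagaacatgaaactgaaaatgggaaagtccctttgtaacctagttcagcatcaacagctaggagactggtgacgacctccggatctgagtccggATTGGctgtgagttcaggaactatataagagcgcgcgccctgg
The stretches of H2-K1 (chr17:34000358-34000557, minus strand), H2-Q4 (chr17:35379407-35379606, plus strand), H2-T22 (chr17:36042753-36042952, minus strand) and B2m (chr2:122147477-122147676, plus strand) cover positions -210 to -11. The stretches of H2-D1 (chr17:35262923-35262951, plus strand) and H2-T23 (chr17:36032736-36032765, minus strand) cover positions -171 to -143 and -64 to -35. H2-K1, H2-D1 and H2-Q4 each held 1 kappaB-type and 1 interferon-response type match. H2-T22 held a match to the interferon-response type only, and H2-T23 and B2m held no match to either set of letters. Only these exact letters were searched, so other forms of the elements, in B2m or elsewhere, were not looked for. All 6 held CCAAT. Of 32851 promoter windows of 250 bases before and 50 bases after a start, 0.3% held the kappaB-type letters, 1.6% the interferon-response type and 37.4% CCAAT. The letters were chosen after the member sequences were seen, so these shares are a description only. H2-K1, which was higher in KO mice, and H2-D1 and H2-Q4, whose libraries overlapped, held the same pair of elements.

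Clic1 itself checks the labels. Its level, in CPM (read counts scaled to the size of the library, as normalized by the authors), spanned 0.733 to 1.93 among KO and 3.58 to 5.52 among WT libraries without overlap, and replicate 10, at 1.43 CPM, lay inside the KO range. Replicate 10 was also the most deeply sequenced library, at about 20.8 M reads against 5.45 M to 11 M in the rest.

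H2-T22 (ENSMUSG00000056116) showed the largest difference of the 7 genes. Its level was 14.5, 15.5, 13.7, 13.3 and 15.5 CPM in KO replicates 2, 4, 6, 8 and 10, and 1.29, 1.68, 1.69 and 2.17 CPM in WT replicates 1, 3, 9 and 11. Each KO library was several times above each WT library, and both groups were tight, at 14.5 ± 1.02 (SD, n = 5) and 1.71 ± 0.360 CPM (SD, n = 4). The log2 difference, fitted with limma on log2(CPM + 0.1), was 3.03 (standard error 0.16), which is 8.19-fold on that scale. The pseudocount of 0.1 CPM understates such folds for low genes, and the WT level rests on about 14 to 17 reads per library against 74 to 314 in the KO libraries.

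H2-T23 (ENSMUSG00000067212), which lies 4.3 kb from H2-T22, had the same pattern at a lower level. It was at 7.74, 6.85, 7.51, 8.44 and 8.08 CPM in KO replicates 2, 4, 6, 8 and 10, and at 0.995, 0.83, 1.72 and 1.01 CPM in WT replicates 1, 3, 9 and 11. The groups did not overlap, and WT replicate 9 was the highest of its group. The log2 difference was 2.70 (standard error 0.21), or 6.52-fold. H2-T24 (ENSMUSG00000053835), the next gene 9.2 kb further, differed less. It spanned 4.995 to 7.33 CPM across the KO mice and 2.34 to 3.89 CPM across the WT mice, with a log2 difference of 0.96 (standard error 0.19), or 1.94-fold. KO replicates 4 and 10 were the lowest of the KO libraries, at 5.01 and 4.995 CPM, and still above each WT library. The sum of the 3 genes of this cluster was nearly constant within each group, at 28.3 ± 0.560 CPM in KO (SD, n = 5) and 5.95 ± 0.536 CPM in WT mice (SD, n = 4).

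Of the classical chains, H2-K1 (ENSMUSG00000061232) was higher in each KO library than in each WT library. Its level was 23.4, 26.6, 19.4, 32.7 and 31.8 CPM in KO replicates 2, 4, 6, 8 and 10, and 6.69, 5.91, 12.6 and 4.13 CPM in WT replicates 1, 3, 9 and 11. The spread was wider than for H2-T22 in both groups, and WT replicate 9 stood closest to the KO libraries. The log2 difference was 1.95 (standard error 0.27), or 3.86-fold.

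H2-D1 (ENSMUSG00000073411), the other classical chain and the most abundant heavy chain measured here, overlapped between the groups. It was at 57.1, 56.4, 52.9, 58.6 and 71.2 CPM in KO replicates 2, 4, 6, 8 and 10, and at 55.9, 46.4, 77.6 and 42.0 CPM in WT replicates 1, 3, 9 and 11. The highest and the lowest library were both WT. The log2 difference was 0.13, with a 95% interval from -0.21 to 0.47. H2-Q4 (ENSMUSG00000035929), 1 of the nonclassical chains of the Q cluster, overlapped as well, spanning 4.95 to 8.32 CPM across the KO mice and 4.29 to 10.9 CPM across the WT mice. Its log2 difference was 0.19, with a 95% interval from -0.37 to 0.76.

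B2m (ENSMUSG00000060802), the light chain on chromosome 2, was not higher in the KO libraries. It was at 64.3, 65.9, 39.0, 71.6 and 42.0 CPM in KO replicates 2, 4, 6, 8 and 10, and at 63.9, 57.6, 97.99 and 50.4 CPM in WT replicates 1, 3, 9 and 11. KO replicates 6 and 10 were the lowest of all 9 libraries and WT replicate 9 the highest. The log2 difference was -0.25 (standard error 0.22), with a 95% interval from -0.73 to 0.22.

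**Figure D1:**
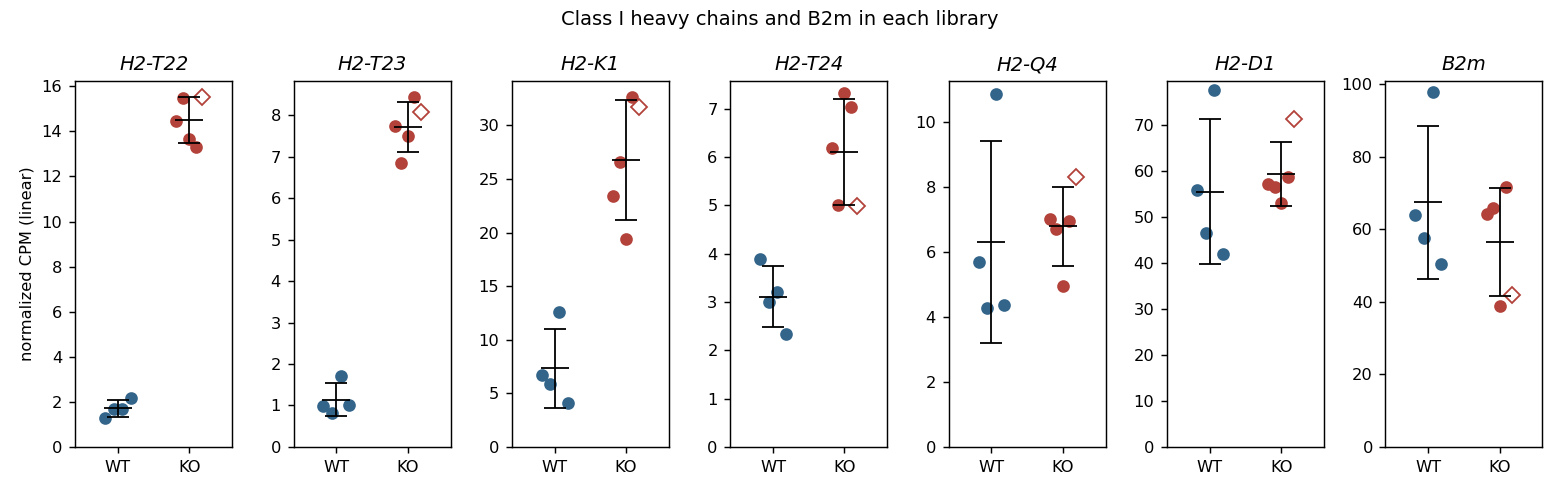
Normalized CPM (linear axes, each from 0) of the 6 heavy chain genes and B2m in WT (blue) and KO (red) libraries. Points are libraries, the open diamond is replicate 10, and bars are mean ± SD. H2-T22, H2-T23, H2-K1 and H2-T24 do not overlap between groups, whereas H2-Q4, H2-D1 and B2m do.

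The ranges of KO and WT libraries did not overlap for 4 of the 7 genes, all higher in KO, beside 1.67% of all genes in that direction. An adjusted p under 0.05 in the limma fit across all genes was reached by 3 of the 7 (H2-T22, H2-T23 and H2-K1), all higher in KO, where 0.139% of all genes were called higher. Because the genes were chosen on this contrast, nothing further is read from these counts. The median log2 difference was 0.96 over the 7 genes and 0.001 over all genes. Without KO replicate 10, 4 of the 7 were called, H2-T24 being the added gene, beside 0.341% of all genes called higher, and the same 4 did not overlap, beside 2.86%. With replicate 10 grouped as WT, as its title says, none of the 7 was called (2 genes, or 0.0139%, were called higher), only H2-T24 did not overlap (1.41% of all genes did not in that direction), and the log2 difference of H2-T22 was 2.38. That library held 15.5 CPM of H2-T22, 8.08 CPM of H2-T23 and 31.8 CPM of H2-K1, so the calls depend on the group it is given.

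Among the heavy chain members, the largest differences were not those nearest to Clic1, and a relation with distance over the region was not tested. H2-D1 and H2-Q4, the members nearest to Clic1 (0.20 and 0.32 Mb towards higher coordinates), were those that overlapped. H2-T24, H2-T23 and H2-T22 lie 0.95, 0.97 and 0.98 Mb away on the same side, and H2-K1 lies 1.05 Mb away on the other. Of the genes outside the class I family, the one nearest to each member on either side did not pass the threshold, but others close by did. Gnl1, a GTPase gene 16.2 kb from H2-T24, had a log2 difference of 0.07 (standard error 0.17, adjusted p = 0.953 from limma). Rpp21, a ribonuclease P subunit gene 213 kb from H2-T22, had -0.12 (standard error 0.16, adjusted p = 0.916 from limma). Beside H2-K1, Vps52 had -0.08 (adjusted p = 0.863 from limma) and Ring1 had 0.35 (standard error 0.10, adjusted p = 0.393 from limma). H2-Q1, the nearest gene after H2-D1, had 1.06 with a standard error of 1.09 (adjusted p = 0.880 from limma). Ddx39b, 9.02 kb from H2-D1, had 0.08, and the neighbours of B2m, Spg11 and Sord, had 0.27 and 0.07, with adjusted p of 0.835, 0.475 and 0.956 from limma. The 127 genes within 3 Mb of Clic1 that are neither class I genes nor Clic1 had a median log2 difference of 0.10 and a range from -1.16 to 2.06.

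Of these 127 genes, 8 (6.3%) passed the limma threshold, 6 higher and 2 lower in KO mice, beside 0.286% of all genes. They were named after their values were seen. The one at the top of the range was Rps18, a ribosomal protein gene 40.02 kb from H2-K1 and just beyond Vps52. Its libraries spanned 38.6 to 63.0 CPM (KO) and 8.12 to 15.8 CPM (WT), and its log2 difference of 2.06 (standard error 0.19, adjusted p = 0.000353 from limma) compares with 1.95 for H2-K1. Rgl2, a Ral exchange factor gene 58.3 kb from H2-K1, had 0.93 (standard error 0.12, adjusted p = 0.00682 from limma). The others higher in KO mice were Cyp4f16 (1.36), Cyp4f14 (1.25), Hspa1a (1.10) and Zfp955b (0.44), and those lower were Stk19 (-0.85) and Hspa1b (-1.15), with adjusted p from 0.00534 to 0.0468 in limma. Without KO replicate 10, 11 of the 127 passed, and with that library as WT none did (5 of all genes did). Why genes of this region differed was not tested.

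**Figure D2:**
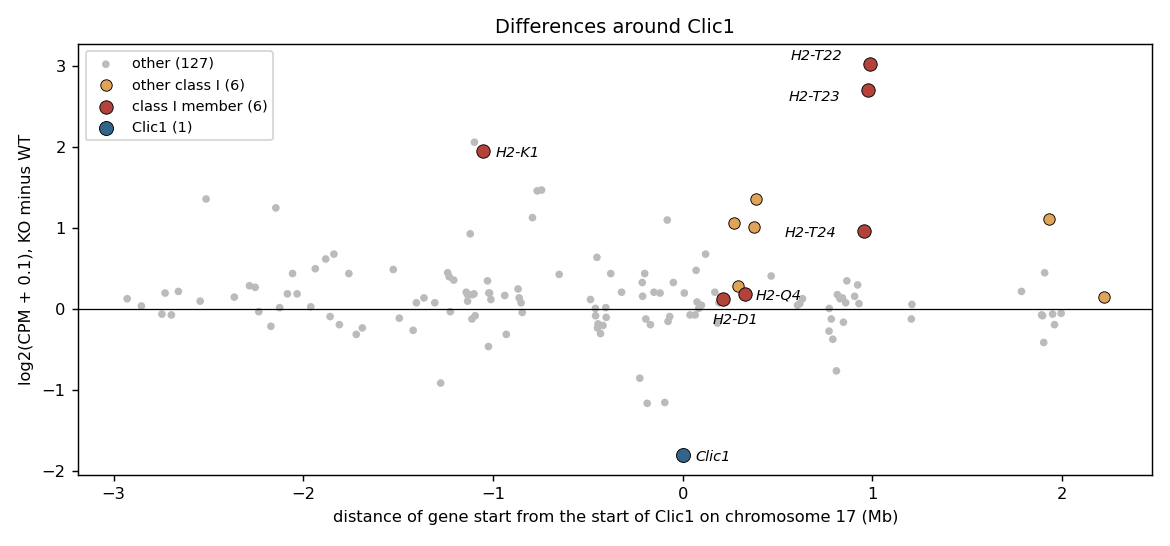
Log2 difference (KO minus WT, limma on log2(CPM + 0.1)) of each gene within 3 Mb of Clic1 against the distance of its start from that of Clic1 in Mb. Red points are the 6 heavy chain members, orange points 6 other class I genes, the blue point Clic1 and grey points 127 other genes. H2-T22 and H2-T23 stand highest, at 3.03 and 2.70, while H2-D1 and H2-Q4, the members nearest to Clic1, lie at 0.13 and 0.19.

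Gene positions on GRCm38 were, on chromosome 17, 36037128 to 36042747 for H2-T22, 36029773 to 36032855 for H2-T23, 36005695 to 36020560 for H2-T24 and 33996017 to 34000347 for H2-K1, all on the minus strand. On the plus strand H2-D1 spans 35262730 to 35267499, H2-Q4 35379617 to 35385290 and, on chromosome 2, B2m 122147686 to 122153083.

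Levels of different genes were compared only per kilobase, as CPM divided by the length of the longest annotated coding transcript. In WT mice the order was B2m (78.5 ± 24.5 CPM per kb), H2-D1 (26.4 ± 7.54), H2-K1 (4.53 ± 2.27), H2-Q4 (3.52 ± 1.74), H2-T24 (1.43 ± 0.292), H2-T22 (0.968 ± 0.204) and H2-T23 (0.774 ± 0.270; SD, n = 4 each). Of the neighbours in that order, the mean ± SD intervals overlapped for H2-K1 and H2-Q4, for H2-T24 and H2-T22, and for H2-T22 and H2-T23. In KO mice the order was B2m (65.8 ± 17.4 CPM per kb), H2-D1 (28.2 ± 3.32), H2-K1 (16.5 ± 3.45), H2-T22 (8.23 ± 0.580), H2-T23 (5.25 ± 0.409), H2-Q4 (3.79 ± 0.673) and H2-T24 (2.80 ± 0.502; SD, n = 5 each), and the intervals overlapped only for H2-Q4 and H2-T24. H2-T22 and H2-T23 thus ranked last among the 7 in WT mice and above H2-Q4 in KO mice.

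The total of the 6 heavy chains was moderately higher in KO mice and its composition differed. The sum was 116, 117, 106, 127 and 140 CPM in KO replicates 2, 4, 6, 8 and 10, and 74.4, 62.1, 108 and 56.0 CPM in WT replicates 1, 3, 9 and 11. WT replicate 9 reached into the KO range, and the ratio of the group means was 1.61. Per kilobase the sum was 64.8 ± 7.05 in KO (SD, n = 5) and 37.6 ± 11.8 CPM per kb in WT mice (SD, n = 4), without overlap and with a ratio of 1.72. H2-D1 made up 67.9% to 71.7% of the heavy chain RNA per kilobase in each WT library and 40.7% to 45.3% in each KO library. The share of H2-K1 was 9.13% to 14.3% in WT and 21.4% to 29.5% in KO libraries. H2-T22 and H2-T23 together made up 3.79% to 6.85% in WT and 19.1% to 22.9% in KO libraries. WT replicate 9, although its heavy chain total was close to that of KO mice, had the WT composition.

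Heavy chain RNA per B2m RNA was nearly the same in all 4 WT libraries. The ratio of CPM per kb was 0.4995, 0.463, 0.477 and 0.477 in WT replicates 1, 3, 9 and 11, although B2m itself ranged from 50.4 to 97.99 CPM among them. In KO replicates 2, 4 and 8 the ratio was 0.828, 0.819 and 0.822. KO replicates 6 and 10, the libraries with the lowest B2m, stood apart at 1.24 and 1.53. Without KO replicate 10 the KO mean was 0.927 ± 0.208 (SD, n = 4), against 0.479 ± 0.0151 in WT mice (SD, n = 4).

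**Figure D3:**
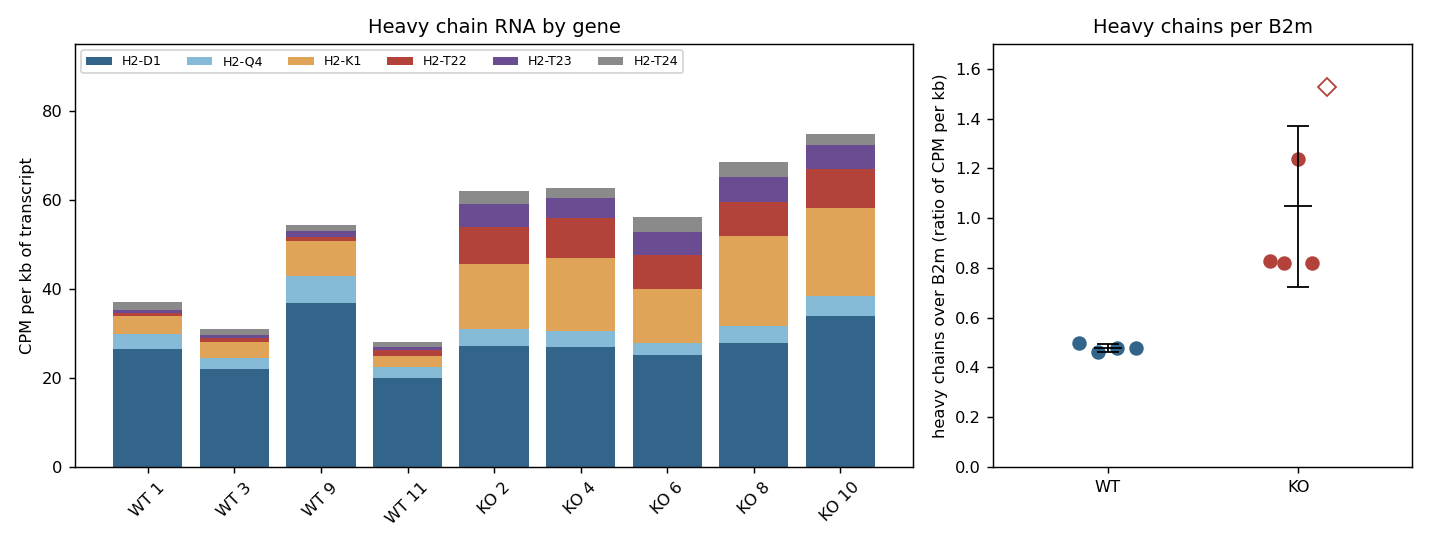
Left, stacked CPM per kb of transcript of the 6 heavy chain genes in each library. Right, the sum of these divided by B2m (ratio of CPM per kb), with points for libraries (WT blue, KO red, open diamond replicate 10) and bars for mean ± SD. H2-D1 fills most of each WT bar and 40.7% to 45.3% of each KO bar, and the WT ratios lie between 0.463 and 0.4995, below all KO ratios.

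The members that overlapped between the groups were also compared across the 9 libraries, a measure that the choice of genes did not use. H2-D1 and H2-Q4 varied together, with Pearson r = 0.95 (exact permutation test over all pairings, two-sided, p = 3.03e-05) and Spearman rho = 0.97 (exact permutation p = 0.000165). For the 3 pairs tested among B2m, H2-D1 and H2-Q4, the Benjamini-Hochberg adjusted p of this pair was 9.09e-05 for r and 0.000496 for rho. Without WT replicates 9 and 11, the libraries farthest from the median of H2-D1, r was 0.92 (n = 7), and over the sets that each left out a library it was 0.93 to 0.97. H2-D1 and H2-Q4 share 3.3% of the 50-base stretches of the H2-D1 transcript, so part of their reads cannot be told apart, and its part in the relation was not tested.

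Neither relation of B2m passed the test over all libraries. For B2m and H2-D1, r was 0.39 and rho 0.55, with exact permutation p of 0.296 and 0.133 (adjusted 0.296 and 0.178). For B2m and H2-Q4, r was 0.55 and rho 0.50, with exact permutation p of 0.125 and 0.178 (adjusted 0.187 and 0.178). In the 4 WT libraries B2m and H2-D1 had the same order, from WT replicate 11 (50.4 and 42.0 CPM) to WT replicate 9 (97.99 and 77.6 CPM). Among the KO libraries replicate 10 had the highest H2-D1 (71.2 CPM) and next to the lowest B2m (42.0 CPM). The relation over all libraries therefore covers groups that look unlike, which are too small for a correlation of their own, and the difference between them was not tested. Without KO replicate 6 and WT replicate 9 these r values were -0.12 and -0.01 (n = 7). They rest on single libraries, since r for B2m and H2-D1 ranged from -0.04 without WT replicate 9 to 0.76 without KO replicate 10, and for B2m and H2-Q4 from 0.18 to 0.84 without the same libraries.

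**Figure D4:**
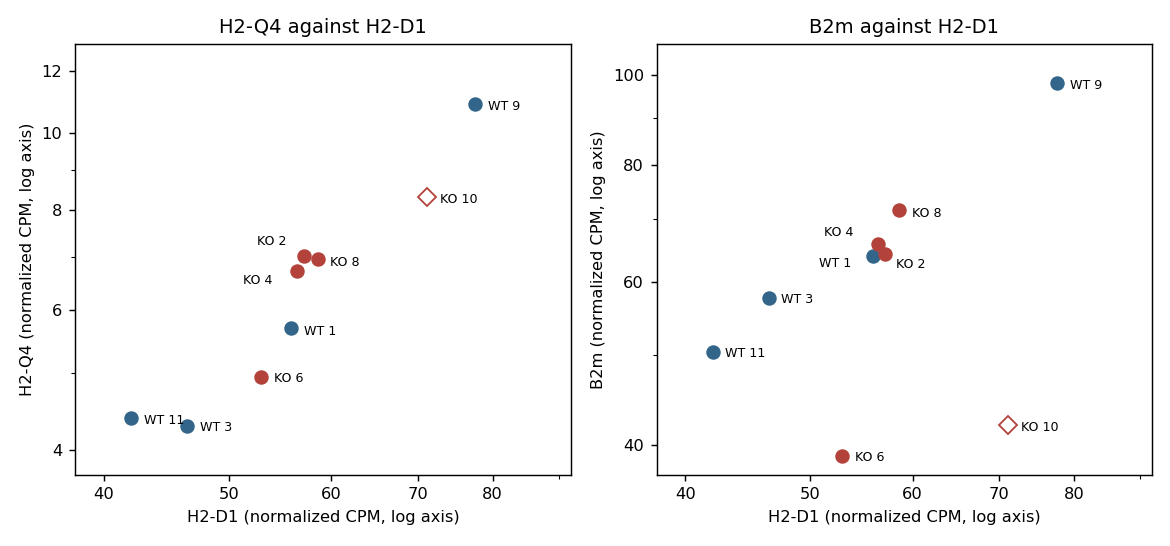
H2-Q4 (left) and B2m (right) against H2-D1 in the 9 libraries, in normalized CPM on log axes, WT in blue, KO in red and replicate 10 as an open diamond. H2-Q4 rises with H2-D1 (r = 0.95), whereas KO 6 and KO 10 lie apart in the panel of B2m, at 39.0 and 42.0 CPM.

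The genes whose log2 level was most like that of the summed heavy chains over the 9 libraries were Ifih1, a sensor of viral RNA (r = 0.974), Rcn3 (0.965), Prom1 (0.947), Arf5 (0.940) and Ahcy (0.936), none of them on chromosome 17. For B2m they were Pla2g5 (0.966), Lin52 (0.955), Atp5mpl (0.948), Pitrm1 (0.945) and Arhgap1 (0.940). After each group mean was subtracted, the genes most like B2m were Ifitm3 (0.982), an interferon-induced membrane protein gene, Aldh1a2 (0.969), Htra3 (0.963), Pla2g5 (0.962) and Slc6a13 (0.962). Those most like the summed heavy chains were then H2ac6 (0.980), Rcn3 (0.980), Tm2d3 (0.979), Vkorc1 (0.966) and Emg1 (0.966). These values are the highest of all genes outside the members over 9 libraries and are given as a description.

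The other genes of class I presentation did not pass the threshold. In the lists of other class I and class I-like genes, peptide supply and loading, transcription factors of class I promoters, receptors for class I, class II genes and interferon-stimulated genes, 74 of 115 genes were in the table. None had an adjusted p under 0.05 in limma, beside 0.286% of all genes, and none in limma-voom on approximate counts. At an unadjusted p under 0.05 there were 12 of the 74 (11 higher and 1 lower in KO), beside 6.5% of all genes. The log2 difference was above 0 for 55 of the 74. In simulated libraries with 200 changed genes, the same fit recovered 35% of them at a log2 change of 0.5. At a change of 1 it recovered 77%, so moderate differences can stay below the threshold. The 200 genes were drawn at random from all genes and outnumber the 41 called in the data. Recovery among the listed genes themselves was therefore not tested and may be lower. 

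Of 32 other class I and class I-like genes, 11 were in the table, with log2 differences from 0.12 to 1.36 and a median of 0.46. Those with the highest CPM were H2-Q2 (0.29, standard error 0.16), Mr1, which presents vitamin B metabolites (0.46, standard error 0.14), and the Fc receptor chain Fcgrt (0.12, standard error 0.20), with adjusted p of 0.824, 0.506 and 0.926 from limma. H2-Q7 and H2-Q6, named after their values were seen, had 1.36 and 1.01 (standard errors 0.37 and 0.32), with adjusted p of 0.378 and 0.534 from limma. The libraries of H2-Q7 overlapped, at 2.38 to 5.30 CPM (KO) and 1.04 to 3.89 CPM (WT). The summed level of the 11 genes did not overlap between the groups, at 57.4 to 71.9 CPM (KO) and 43.5 to 56.0 CPM (WT). At an unadjusted p under 0.05 in limma there were 5 of the 11, all higher in KO, beside 6.5% of all genes.

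The 17 genes that supply and load peptides were all measured, and their log2 differences lay between -0.05 and 0.25. The chaperone genes Canx and Hspa5 had 0.08 and 0.21, and the aminopeptidase gene Lnpep had -0.05 (adjusted p of 0.874, 0.844 and 0.921 from limma). KO replicate 10 was the highest library for Canx (690 CPM) and Hspa5 (454 CPM) and the lowest for Lnpep (323.5 CPM). The remaining KO libraries lay at 547 to 568, 252 to 303 and 403 to 422.5 CPM. The 14 transcription factor genes, among them the class I activator Nlrc5, ranged from -0.48 to 0.14. Creb1, Rfx5 and Nfkb1, those with the highest CPM, had 0.05, -0.03 and 0.00 (adjusted p of 0.917, 0.959 and 0.996 from limma), and the lowest was Rfxank, a subunit gene of the RFX complex that was also named after its value was seen (-0.48, standard error 0.13, adjusted p = 0.336 from limma). Of the 11 receptor genes only Cd160 was in the table (-0.06, adjusted p = 0.977 from limma).

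Among 25 measured interferon-stimulated genes the median log2 difference was 0.09, and the summed level lay between 166 and 219 CPM (KO) and between 144 and 269 CPM (WT). The highest sum was that of WT replicate 9, and the sums of the remaining WT libraries lay below those of all KO libraries. Ifit2, Stat2 and Irf9, those with the highest CPM, had log2 differences of -0.02, 0.02 and 0.12 (adjusted p of 0.972, 0.987 and 0.896 from limma). Ifih1 lay between 7.14 and 10.6 CPM (KO) and between 3.58 and 7.30 CPM (WT). Its log2 difference was 0.81, with a standard error of 0.20 and an adjusted p of 0.259 in limma. The 6 measured class II genes ranged from -0.31 to 1.47. Cd74, H2-DMa and the class II activator Ciita had 0.46, -0.31 and 0.00 (adjusted p of 0.888, 0.794 and 0.999 from limma).

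**Figure D5:**
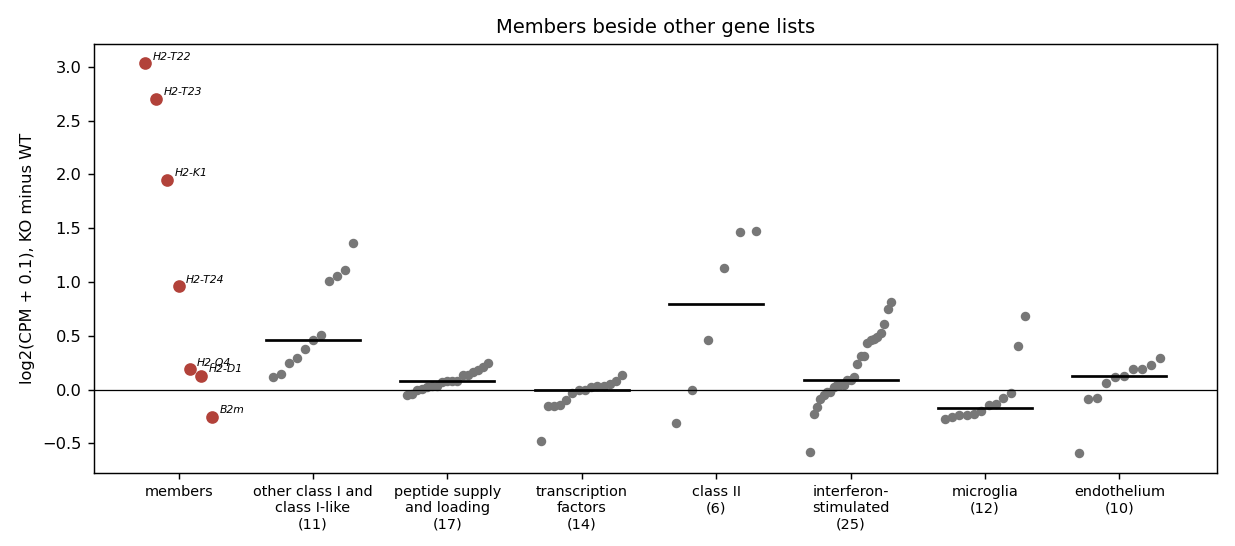
Log2 difference (KO minus WT) of the 7 members (red) and of the measured genes of 7 other lists (grey, with the number of genes under each list and a line at the median). Peptide supply and loading genes lie between -0.05 and 0.25, below H2-T22, H2-T23, H2-K1 and H2-T24.

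Whole hypothalamus was sequenced, so more cells of a type and more RNA per cell cannot be told apart. All 12 microglia markers were measured, none passed the threshold, and their summed level was 250 to 298 CPM (KO) and 273 to 350 CPM (WT). Their median log2 difference was -0.17, and 2 of the 12 were above 0. Csf1r and Sall1 had log2 differences of -0.08 and -0.24 (adjusted p of 0.904 and 0.824 from limma). KO replicate 10 was the lowest library for Sall1 (23.5 CPM, against 33.3 to 39.8 CPM in the remaining KO libraries). For Csf1r it was the highest KO library (72.4 CPM). All 10 endothelial markers were measured and none passed, with sums of 302 to 333 CPM (KO) and 295 to 334 CPM (WT). Flt1, Slc2a1 and Abcb1a had 0.13, -0.08 and 0.29 (adjusted p of 0.790, 0.888 and 0.743 from limma). None of the 13 lymphocyte markers was in the table. Of 10 border macrophage and red cell markers 4 were in it, with sums of 17.3 to 27.4 CPM (KO) and 15.8 to 19.1 CPM (WT), and Alas2, Mrc1 and F13a1 had log2 differences of 0.37, 0.51 and 0.39 (adjusted p of 0.648, 0.828 and 0.862 from limma). All 14 hypothalamic markers were measured, and 1 passed, Avp, the vasopressin gene (0.90, standard error 0.10, adjusted p = 0.0027 from limma). Pmch and Hcrt had 0.25 and -0.01 (adjusted p of 0.790 and 0.996 from limma). The part of border macrophages in the class I values was not tested.

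Class I genes resemble each other, and the reads of 1 gene can be credited to another. The coding sequences of H2-K1 and H2-D1 are 92.2% identical over 1073 aligned bases, those of H2-D1 and H2-Q4 91.0%, and those of H2-T22 and H2-T23 82.3%. H2-T24 is 76.7% to 79.5% identical to the other 5. Of the 50-base stretches of the H2-T22 transcript, 44.7% also occur in transcripts of other genes, 37.9% in H2-T10, which was not analysed here, and 4.8% in H2-T23. The shares were 28.8% for H2-T23, 24.3% for H2-Q4, 14.3% for H2-D1, 8.8% for H2-K1, 3.2% for H2-T24 and 0.0% for B2m. For the closest pair by sequence, the summed level of H2-K1 and H2-D1 was 86.02 ± 11.6 CPM in KO (SD, n = 5) and 62.8 ± 19.5 CPM in WT mice (SD, n = 4), with overlap. The overlap was that of WT replicate 9, at 90.2 CPM. The remaining WT libraries reached 62.6 CPM, below the lowest KO library at 72.35 CPM. The reference sequence is that of C57BL/6J mice, and how reads of other H2 alleles were divided among these genes was not tested.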

How the data were processed

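RNA of the hypothalamus was sequenced in 9 libraries. Per the labels and the methods of the study, the authors trimmed reads with Trimmomatic 0.38, aligned them to GRCm38.p6 with STAR 2.5.1a and estimated gene counts with RSEM 1.3.0, which divides reads that match several genes. They removed low genes, scaled by TMM and deposited the signal used here, TMM-normalized CPM. The deposited table of the authors' own comparison (fold changes and p-values from limma-voom) was used for gene symbols only. There was 1 column of per-sample values that matched no sample and was not used.

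Values were fitted as log2(CPM + 0.1) with limma 3.58.1 in R 4.3.3 (eBayes with trend, condition only, 9 libraries), with p-values adjusted by Benjamini-Hochberg over all 14351 genes and called under 0.05. The fit was tested on simulated data. Correlations used exact permutation tests. The value of 1 read, estimated from the steps between values up to 2.5 CPM (81% to 86.6% of them within 0.03 reads of a whole read), gave about 5.45 M to 20.8 M reads per KO library and 7.28 M to 11 M per WT library. KO replicate 10 was the deepest. These totals are approximate, and low genes have the least precise values.

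Positions and transcripts came from GENCODE M21 (GRCm38, 14336 genes placed) and promoters from RefSeq (GRCm38.p6). The members and lists were chosen with earlier results of these data known, and the motifs after the sequences were seen. The genes named were the members and Clic1, listed genes past the threshold, the 3 most abundant genes of each list, the 5 genes most like the summed heavy chains and B2m, and the nearest neighbours of each member. The value of 1 of these genes is not reported here. Alternatives were other pseudocounts, a filter at a mean of 5 CPM, other scalings, variance models and weights, limma-voom on approximate counts, a threshold of 0.1, replicate 10 as WT, and leaving out each replicate.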

Additional observations from a re-analysis of the deposited data

Results flagged for a closer look

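In 3 of the 40 groups of values examined, 1 library lay far from the rest. Chance alone would give about 1 such group in 20, or 2 here, if the groups were separate. Several of them share genes and libraries, so this number is only a rough guide. H2-D1 made up 67.9% of the heavy chain RNA per kilobase in WT replicate 9, against 71.2% to 71.7% in the other WT libraries. The summed level of H2-T22, H2-T23 and H2-T24 was 27.4 CPM in KO replicate 4, whereas the remaining KO libraries lay at 28.4 to 28.8 CPM. The summed level of H2-Q6 and H2-Q7 was 6.87 CPM in WT replicate 9, against 2.34 to 2.59 CPM in the other WT libraries.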

How the results depend on the processing

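No paired analysis was made. The KO and WT libraries share no replicate number, and which of them shared a litter cannot be told from these numbers. The count of all genes past the threshold (41) became 27 with a mean of at least 5 CPM, which tests fewer genes, 135 with array weights and 5 with replicate 10 as WT. It ranged from 18 (without WT replicate 1) to 87 (without KO replicate 10) as each replicate was left out in turn, and was 27 without KO replicate 6, 25 without KO replicate 8, and 22, 19 and 24 without WT replicates 11, 3 and 9. The count of called members (3 of 7) became 0 with replicate 10 as WT, ranged from 2 to 4 as each replicate was left out, and was 4 with array weights and 2 with the filter, which removed H2-T23 and H2-T24. H2-K1 was the call lost without WT replicate 3. The count of called pathway genes (0) became 5 with array weights (H2-Q6, H2-Q7, Mr1, Rfxank and Ifih1). The cause was not tested. Of 124 member differences under alternatives, 123 kept their sign (H2-D1 was -0.02 with replicate 10 as WT), and 7 of H2-K1, H2-T22 and H2-T23 moved by more than the spread between replicates. With a pseudocount of 1 CPM, H2-T22 was 2.52 and H2-T23 2.04. The log2 ratio of the summed heavy chains (0.69) lay between 0.40 and 0.92. That of B2m (-0.25) lay between -0.37 and -0.02. About 14 to 17 reads per WT library limit the fold of H2-T22, and 7 to 17 that of H2-T23.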

Other observations

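The class I gene H2-M5 overlapped, at 1.32 to 2.19 CPM (KO) and 0.414 to 1.52 CPM (WT). Its log2 difference was 1.11, with a standard error of 0.33 and an adjusted p of 0.482 in limma. The class II chains H2-Eb1 and H2-Aa had log2 differences of 1.47 and 1.46 (standard errors 0.59 and 0.65, adjusted p of 0.714 and 0.7595 from limma). They ranged from 0.276 to 3.90 and from 0.207 to 3.10 CPM among the WT libraries, and WT replicate 9 was the highest in both. The remaining WT libraries reached 0.622 and 0.633 CPM, below the lowest KO libraries, at 1.465 and 0.916 CPM. Of the 25 measured interferon-stimulated genes, 2 did not overlap between groups, both higher in KO, beside 1.67% of all genes. Ifit1 lay at 4.48 to 8.26 CPM (KO) and 3.32 to 4.23 CPM (WT), with an adjusted p of 0.506 in limma. Ifit3b lay at 9.5 to 10.6 CPM (KO) and 5.35 to 9.46 CPM (WT), with an adjusted p of 0.589 in limma. These 5 genes were named after their values were seen. The ratio of H2-K1 to H2-D1 per kilobase was 0.476 to 0.725 in KO and 0.128 to 0.211 in WT libraries, and WT replicate 9 was the highest WT library.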
